A study of Mus musculus with 6 samples.

Results

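Cytosine methylation at CpG dinucleotides is written and removed by a small set of enzymes, and 8 of them were followed here in mouse embryonic stem cells depleted of Fip1. The set was chosen by gene symbol as 9 genes: the DNA methyltransferases Dnmt1, Dnmt3a and Dnmt3b, the cofactor Dnmt3l, the adaptor Uhrf1, the dioxygenases Tet1, Tet2 and Tet3, and the glycosylase Tdg. Of these 9, 8 had a probe set among the 15268 genes tested, each with 1 probe set, and Tdg was not analysed here. Tet1 was named through the gene number in its probe set ID, because the platform annotation did not list it; 15250 of the 15270 annotated probe sets carried their own gene number as ID.

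The line used, E14Tg2a.4, is a mouse embryonic stem cell line; it was kept on gelatin in M15 medium, and RNA was taken on day 4 after lipofection. There were 3 groups with 2 arrays each: siRNA 2 against Fip1, siRNA 3 against Fip1, and a mock group that received the lipofection reagent and no siRNA. No group carries a non-targeting siRNA, so the presence of any siRNA and the loss of Fip1 cannot be told apart by the mock group. The labels number the replicates of each group 1 and 2, and sample titles with the same number share a code across the 3 groups. Nothing in the labels says that the replicates were separate cultures, so p-values measure the spread between these arrays, which may be technical.

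Dnmt1 copies methylation onto the new strand after replication, and Uhrf1 brings it to hemimethylated sites. Dnmt3a and Dnmt3b methylate unmodified CpGs, and Dnmt3l, which has no catalytic activity of its own, stimulates them. The Tet enzymes oxidise 5-methylcytosine, and Tdg excises the oxidised bases for repair. Embryonic stem cells are known for high Dnmt3b, Dnmt3l, Tet1 and Tet2, while Tet3 is better known from the oocyte and from later development.

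CpGs are the substrate of these enzymes, so the start regions of the members that passed a test below are shown with every CpG in capitals. The windows are RefSeq's on GRCm38.p6, 300 bases long, from 250 bases before to 50 after an annotated start, read 5′ to 3′ on the gene's strand. All 9 genes matched, with 16 windows in all, and 6 windows of 4 genes are printed. All 3 starts of Dnmt3l are given because the array does not tell which one was used, and for Dnmt1 the window with the most CpGs of its 3 is given.
Dnmt3l at chr10:78042037-78042336, plus strand: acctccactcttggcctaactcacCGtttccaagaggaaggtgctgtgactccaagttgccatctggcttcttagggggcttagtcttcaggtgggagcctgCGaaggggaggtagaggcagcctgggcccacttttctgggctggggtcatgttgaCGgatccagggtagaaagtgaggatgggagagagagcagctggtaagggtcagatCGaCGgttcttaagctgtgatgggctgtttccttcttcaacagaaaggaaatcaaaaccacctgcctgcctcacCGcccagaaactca
Dnmt3l at chr10:78049592-78049891, plus strand: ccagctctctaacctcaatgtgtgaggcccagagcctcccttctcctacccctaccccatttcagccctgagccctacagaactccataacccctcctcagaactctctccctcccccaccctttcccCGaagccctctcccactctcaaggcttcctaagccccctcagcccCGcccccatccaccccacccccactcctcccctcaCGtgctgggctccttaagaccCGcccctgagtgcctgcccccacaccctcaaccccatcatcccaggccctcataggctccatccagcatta
Dnmt3l at chr10:78055085-78055384, plus strand: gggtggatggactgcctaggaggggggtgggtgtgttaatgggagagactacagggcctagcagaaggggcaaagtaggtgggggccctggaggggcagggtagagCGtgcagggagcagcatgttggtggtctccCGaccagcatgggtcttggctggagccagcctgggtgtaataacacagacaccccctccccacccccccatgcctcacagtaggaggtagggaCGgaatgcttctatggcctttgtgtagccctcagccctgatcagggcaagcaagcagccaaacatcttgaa
Tet1 at chr10:62887275-62887574, minus strand: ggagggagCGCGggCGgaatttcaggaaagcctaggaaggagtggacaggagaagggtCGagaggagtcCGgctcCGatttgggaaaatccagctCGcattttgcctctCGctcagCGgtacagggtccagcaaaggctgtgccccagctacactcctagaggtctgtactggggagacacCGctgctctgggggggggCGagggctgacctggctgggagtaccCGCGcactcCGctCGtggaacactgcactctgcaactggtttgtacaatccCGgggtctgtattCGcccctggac
Dnmt1 at chr9:20952574-20952873, minus strand: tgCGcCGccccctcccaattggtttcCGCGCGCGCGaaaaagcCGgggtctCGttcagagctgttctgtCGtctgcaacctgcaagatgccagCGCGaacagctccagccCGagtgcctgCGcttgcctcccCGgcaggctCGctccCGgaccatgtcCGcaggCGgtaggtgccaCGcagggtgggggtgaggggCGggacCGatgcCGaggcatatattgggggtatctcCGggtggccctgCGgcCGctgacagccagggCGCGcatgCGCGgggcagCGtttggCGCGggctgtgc
Dnmt3b at chr2:153649199-153649498, plus strand: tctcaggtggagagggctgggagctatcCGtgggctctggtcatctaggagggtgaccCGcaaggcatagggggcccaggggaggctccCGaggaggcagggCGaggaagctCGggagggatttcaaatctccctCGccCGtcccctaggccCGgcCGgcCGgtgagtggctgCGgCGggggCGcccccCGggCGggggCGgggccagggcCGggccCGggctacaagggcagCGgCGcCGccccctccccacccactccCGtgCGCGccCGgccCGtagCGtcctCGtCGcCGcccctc

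The Dnmt3l windows held 6, 4 and 3 CpGs in the order printed, where the median of 32851 windows of the same length was 7. The Tet1 window held 17 CpGs, and 31.4% of all windows held as many or more. The printed Dnmt1 window held 33 (8.56% held as many or more) and the Dnmt3b window 30 (11.7%). The Dnmt1 windows not printed held 12 (39.6%) and 2 (85.9%), and the array does not tell which Dnmt1 start was used. Among the members not printed, Tet2 had 57 CpGs in its window, a number reached by 0.152% of all windows, and the 3 windows of Dnmt3a had 46, 47 and 18. CG reads the same on both strands, and 94.6% of all windows held at least 1. These counts describe the sequence only, and methylation was not measured.

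Fip1l1, the gene that encodes Fip1, checks the labels. Its log2 values in replicates 1 and 2, the order used throughout, were 9.65 and 9.74 in mock, 8.26 and 7.79 under siRNA 2, and 8.39 and 7.86 under siRNA 3. Pairs of arrays correlated at 0.987 to 0.997. The 9 embryonic stem cell markers examined, among them Pou5f1 and Nanog, had mean log2 values of 9.98 to 13.4 in mock, and 0 of them passed the test in either direction (limma; 2 with the replicate number as a block, Nanog and Tdgf1). All 8 fibroblast markers had mock means of 3.27 to 6.37, and 0 passed with limma, with or without the block. In the trophectoderm list, 2 of 8 rose, Eomes by 1.02 and Gata3 by 0.82 (neither without mock replicate 2), and the mean level of the list was 6.49 to 6.70 on the siRNA arrays and 5.93 and 6.38 on the mock arrays. Gata3 was dim in mock, at 4.30 and 3.99. All 8 differences of that list were positive, and with the block 4 rose, Krt8 (0.68, limma adjusted p = 0.0102) and Tfap2c (0.37, 0.0232) besides Eomes and Gata3. Among all genes 4.15% rose without the block, and 3081 of 15268 passed with it in either direction. Of 7 post-implantation epiblast markers, 0 passed in limma, while with the block Otx2 (0.71, adjusted p = 0.00841) and Fgf5 (0.43, 0.0402) were higher and Lef1 (-0.82, 0.000902) lower. The mean level of that list was 6.29 to 7.05 on the siRNA arrays and 6.16 and 6.85 on the mock arrays. Of 6 primitive endoderm markers, 0 passed in limma, and with the block Sox17 was lower (-0.40, adjusted p = 0.0480). The list mean there was 5.32 to 5.94 on the siRNA arrays and 5.37 and 5.88 on the mock arrays. Apart from Eomes and Gata3, only Lef1 among the markers called with the block kept its call without any 1 array. In those blocked fits the difference ran from 0.25 to 0.62 for Fgf5, 0.35 to 1.07 for Otx2 and 0.31 to 1.04 for Krt8. It ran from 0.23 to 0.50 for Tfap2c, 0.15 to 0.30 for Nanog and -0.51 to -0.29 for Sox17. The part of these markers in the results below was not tested.

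**Figure D1:**
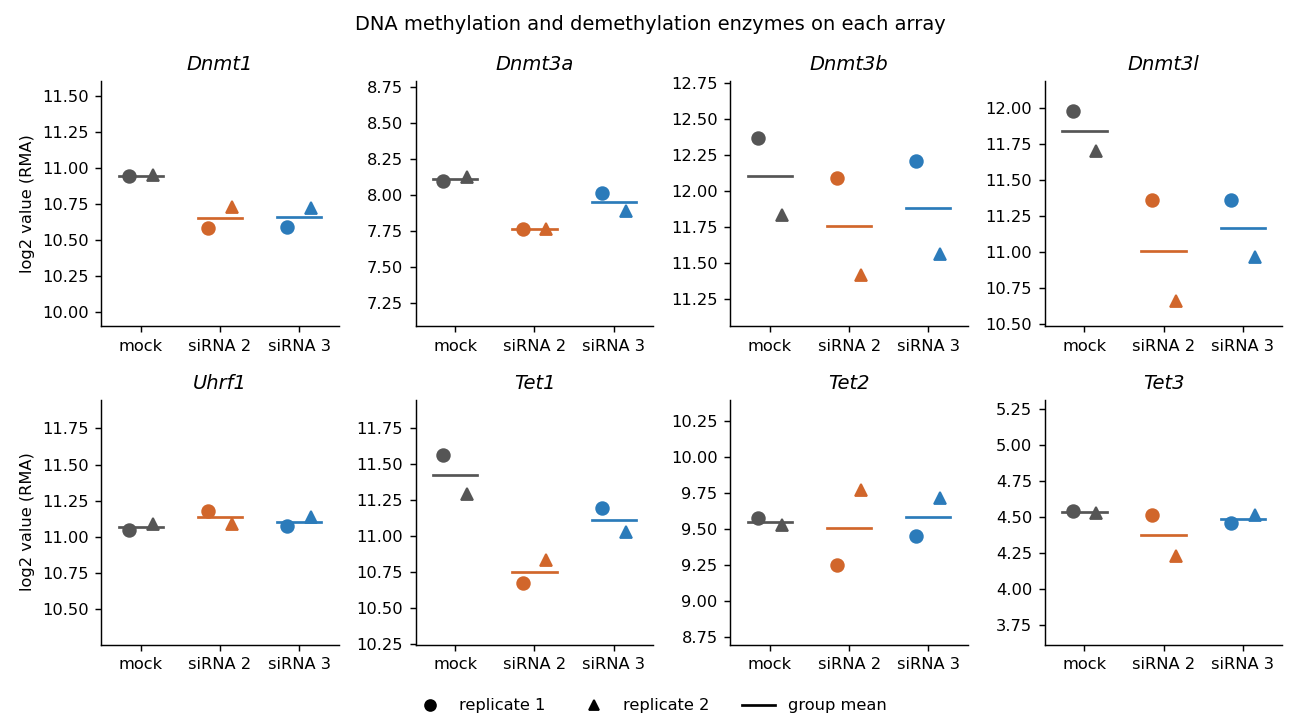
Log2 value of each measured member on each of the 6 arrays, by group, with replicate 1 as circles, replicate 2 as triangles and the group mean as a line; every panel spans the same log2 range. For Dnmt1, Dnmt3a, Dnmt3l, Tet1 and Tet3 the 4 siRNA arrays lie below both mock arrays, and for Dnmt3b and Dnmt3l replicate 2 lies below replicate 1 in each group. Tet3 is dim, and its siRNA 3 replicate 2 array lies only 0.0116 below mock replicate 2.

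After Fip1 depletion Dnmt3l and Tet1 fell in the model without the replicate number, and no member rose (4.15% of all genes did). With the replicate number as a block 4 members passed as lower, Dnmt1 and Dnmt3b besides these 2, where 11.8% of all genes did. The mean of both siRNAs was compared with mock across all genes. Without the block 2 of the 8 measured members passed the threshold, both lower, where 10.3% of all genes passed and 6.20% passed as lower. At mean log2 values of 9 to 13, which hold 6 of the 8 members, 9.41% of genes passed as lower and 2 of the 6 members did. The median difference of the 8 members was -0.27, against -0.00156 for all genes. In 5 members, Dnmt1, Dnmt3a, Dnmt3l, Tet1 and Tet3, all 4 siRNA arrays lay below both mock arrays, which held for 18.4% of all genes. Tet3 was dim, and its siRNA 3 replicate 2 array lay only 0.0116 below mock replicate 2. Probe positions were not used here, and Fip1 acts on transcript ends, so an altered transcript end and a change in mRNA level cannot be told apart for any member. On bulk RNA, fewer cells with a transcript and less RNA per cell cannot be told apart either.

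Dnmt3l, the stimulating cofactor of de novo methylation, was at 11.97 and 11.70 in mock, at 11.36 and 10.66 with siRNA 2, and at 11.36 and 10.96 with siRNA 3. Every siRNA array was below both mock arrays, and the lowest value was that of siRNA 2 replicate 2. The log2 difference was -0.75 (SE 0.193, 95% interval -1.19 to -0.31, limma adjusted p = 0.0437), which left 59.4% of the mock level. Relative to mock within a replicate number, 65.2% and 48.6% remained with siRNA 2 and 65.4% and 60.0% with siRNA 3. With the replicate number as a block the adjusted p was 0.000560, and that call held without any 1 array (adjusted p 3.75e-07 to 0.0176). Without the block the call ended when siRNA 2 replicate 2 (0.0705), siRNA 3 replicate 2 (0.0671), mock replicate 1 (0.219) or mock replicate 2 (0.140) was left out.

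Tet1, a dioxygenase that oxidises 5-methylcytosine, was at 11.56 and 11.29 in mock, at 10.67 and 10.83 with siRNA 2, and at 11.20 and 11.03 with siRNA 3. All 4 siRNA arrays were below both mock arrays, as in 18.4% of all genes. The siRNA 2 arrays were also below the siRNA 3 arrays, an order whose share over all genes was not counted. The log2 difference for the mean of both siRNAs was -0.49 (SE 0.104, 95% interval -0.73 to -0.26, limma adjusted p = 0.0214), or 71.0% of mock. With the block the adjusted p was 0.00506. Without the block the call ended when siRNA 2 replicate 1 (0.0624), mock replicate 1 (0.136) or mock replicate 2 (0.0512) was left out, and with the block when mock replicate 1 was left out (0.0830).

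Dnmt1, the maintenance methyltransferase, was at 10.95 on both mock arrays, at 10.58 and 10.73 with siRNA 2, and at 10.59 and 10.72 with siRNA 3. The mock arrays were almost equal and all 4 siRNA arrays lay below them, yet the difference of -0.29 (SE 0.0842, 95% interval -0.48 to -0.10) did not pass (limma adjusted p = 0.0657). With the replicate number as a block it passed (SE 0.0688, adjusted p = 0.0167), except without mock replicate 1 (0.191) or mock replicate 2 (0.0781). The difference corresponds to 81.8% of the mock level.

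Uhrf1, the partner of Dnmt1 in maintenance, was at 11.05 and 11.09 in mock, at 11.18 and 11.09 with siRNA 2, and at 11.07 and 11.13 with siRNA 3. The groups overlapped, and the difference was 0.05 (95% interval -0.12 to 0.22, limma adjusted p = 0.749). On the linear scale that interval runs from 91.9% to 117% of the mock level.

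Dnmt3b, a de novo methyltransferase, was at 12.37 and 11.84 in mock, at 12.09 and 11.42 with siRNA 2, and at 12.21 and 11.56 with siRNA 3. Within each replicate number both siRNA arrays were below the mock array, by 0.156 to 0.418, but across the numbers the groups overlapped. Its difference was -0.28 with an SE of 0.236, short of the threshold (limma adjusted p = 0.533). With the block its SE was 0.0626 and it passed (adjusted p = 0.0127, 95% interval -0.42 to -0.14). That blocked call ended without mock replicate 2 (0.240).

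Dnmt3a, the other de novo methyltransferase, was at 8.09 and 8.12 in mock, at 7.76 on both siRNA 2 arrays, and at 8.01 and 7.89 with siRNA 3. All siRNA arrays were below both mock arrays, as in 18.4% of all genes. The difference was -0.25 (SE 0.102, limma adjusted p = 0.173) and did not pass with the block either (0.0844).

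Tet2, which oxidises 5-methylcytosine like Tet1, was at 9.58 and 9.53 in mock, at 9.25 and 9.77 with siRNA 2, and at 9.45 and 9.72 with siRNA 3. The siRNA arrays lay below mock in replicate 1 and above it in replicate 2, a switch of side found in 12.0% of all genes, and the mean difference was -0.0034 (95% interval -0.35 to 0.34, limma adjusted p = 0.994). Tet3 was at 4.54 and 4.53 in mock, at 4.51 and 4.23 with siRNA 2, and at 4.46 and 4.51 with siRNA 3. Its difference was -0.10 (95% interval -0.38 to 0.17, limma adjusted p = 0.673). Tet3 was dim, with 24.4% to 31.5% of an array's probe sets at or below it, and without detection calls its expression is uncertain.

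**Figure D2:**
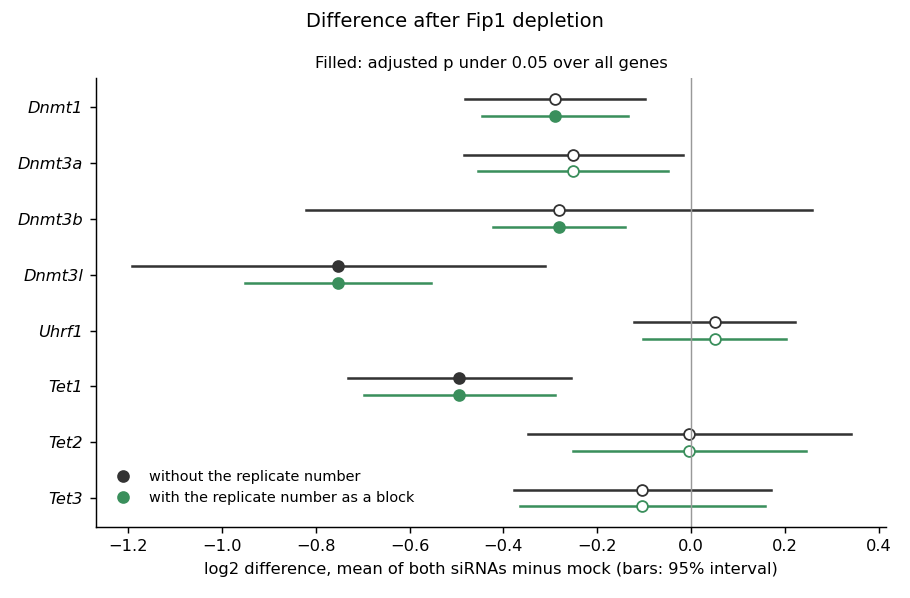
Log2 difference of each member for the mean of both siRNAs minus mock, with its 95% interval, from the model without the replicate number (black) and with it as a block (green); filled points have an adjusted p under 0.05 over all genes. Dnmt3l (-0.75) and Tet1 (-0.49) are filled in both models, and Dnmt1 and Dnmt3b only with the block.

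With the block, 4 members passed, all lower (Dnmt1, Dnmt3b, Dnmt3l and Tet1), where 11.8% of all genes passed as lower. Taken within a replicate number, all 4 siRNA arrays were below mock in 6 members, Dnmt1, Dnmt3a, Dnmt3b, Dnmt3l, Tet1 and Tet3, and in 25.5% of all genes. For the dim Tet3 the smallest of these differences was 0.0116 in size.

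Both siRNAs were set against the same mock arrays, so their differences share those controls. With siRNA 2, 1 member passed, Tet1 at -0.68 (SE 0.120, limma adjusted p = 0.0149), where 6.93% of all genes passed and 4.01% were lower. It no longer passed when either siRNA 2 array (0.0931 and 0.0814) or mock replicate 1 (0.0703) was left out. With siRNA 3, 0 members passed in limma, where 5.74% of all genes did and 20.6% had an unadjusted p under 0.05; Tet1 was at -0.31 (adjusted p = 0.184). Dnmt3l was at -0.83 with siRNA 2 (limma adjusted p = 0.0624) and -0.67 with siRNA 3 (0.128), and Dnmt1 at -0.29 with each (0.115 and 0.135). With the block 4 members passed for siRNA 2, Dnmt1, Dnmt3b, Dnmt3l and Tet1, all lower, as 9.96% of all genes were, and 2 for siRNA 3, Dnmt1 (adjusted p = 0.0410) and Dnmt3l (0.00303), both lower, as 8.38% of all genes were.

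The direct comparison of siRNA 2 with siRNA 3 called 0 members and 0.00% of all genes in limma, with or without the block, while 645 genes (4.22%) had an unadjusted p under 0.05. Tet1 was among these, lower with siRNA 2 by 0.36 (95% interval -0.64 to -0.09, unadjusted p = 0.0154, limma adjusted p = 0.984). Dnmt3a was at -0.19 (95% interval -0.46 to 0.08) and Dnmt3l at -0.16 (-0.66 to 0.35). Tet1 and Dnmt3a therefore did not pass as different between the siRNAs. Their siRNA 2 arrays lay below their siRNA 3 arrays, but the share of all genes with that order was not counted.

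Dnmt3b and Dnmt3l also differed between the replicate numbers, in the mock group as well as with each siRNA. Replicate 2 was compared with replicate 1 within the 3 groups, and 2 of the 8 members passed, both lower in replicate 2, where 2.49% of all genes passed and 1.43% were lower. Dnmt3b was lower in replicate 2 by 0.528 in mock, 0.671 with siRNA 2 and 0.647 with siRNA 3. Its mean log2 difference was -0.62 (SE 0.0591, limma adjusted p = 0.00139), or 65.3% of the level in replicate 1, and it passed without any 1 array. Dnmt3l was lower by 0.275 in mock, 0.699 with siRNA 2 and 0.399 with siRNA 3. Its mean was -0.46 (SE 0.0828, limma adjusted p = 0.0266), and it did not pass without siRNA 2 replicate 1 (0.0638) or siRNA 2 replicate 2 (0.0617). Replicate 2 was below replicate 1 in all 3 groups in these 2 members, as in 17.6% of all genes.

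For Dnmt3b the difference between the replicate numbers (-0.62) was larger in size than that between siRNA and mock arrays (-0.28), while for Dnmt3l it was smaller (-0.46 against -0.75). Dnmt1 (0.09), Uhrf1 (0.01), Dnmt3a (-0.03), Tet1 (-0.09) and Tet3 (-0.08) did not pass between the replicate numbers, nor did Tet2 (0.25, limma adjusted p = 0.258). Other markers moved with the replicate number, where 2.49% of all genes passed. Of 7 post-implantation epiblast markers, 4 fell in replicate 2, Pou3f1 by 1.24, Sall2 by 0.96, Fgf5 by 0.84 and Lef1 by 0.55, and the mean level of the list was 6.78 to 7.05 in replicate 1 and 6.16 to 6.33 in replicate 2. Of 6 primitive endoderm markers, 3 rose in replicate 2, Sox7 by 0.80, Sox17 by 0.65 and Gata6 by 0.64, with a list mean of 5.32 to 5.37 in replicate 1 and 5.61 to 5.94 in replicate 2. Of 8 trophectoderm markers, 2 fell in replicate 2, Krt18 by 1.07 and Krt8 by 0.96, with a list mean of 6.38 to 6.70 in replicate 1 and 5.93 to 6.49 in replicate 2. Sall2, Sox7 and Krt18 were named after their values were seen. The part of these lists in the Dnmt3b and Dnmt3l differences was not tested. What the shared code stands for is not given in the labels.

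**Figure D3:**
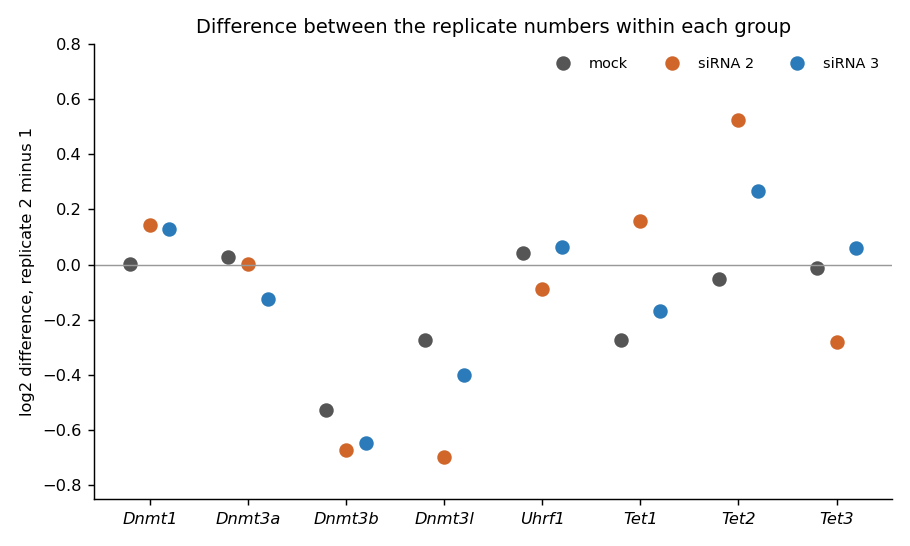
Log2 difference of replicate 2 minus replicate 1 for each member within mock, siRNA 2 and siRNA 3, 1 point per group. The 3 points of Dnmt3b lie between -0.671 and -0.528 and those of Dnmt3l between -0.699 and -0.275, while the points of Dnmt1, Dnmt3a and Uhrf1 lie within 0.143 of 0.

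Whether the difference after depletion depended on the replicate number was tested as well. No member and 0.00% of all genes passed in limma, and 678 genes (4.44%) had an unadjusted p under 0.05. The effect in replicate 2 minus that in replicate 1 was -0.27 for Dnmt3l (95% interval -0.70 to 0.16) and 0.27 for Tet1 (-0.36 to 0.91). Less Fip1l1 remained in replicate 2 (25.9% and 27.1% of the mock array for siRNA 2 and siRNA 3) than in replicate 1 (38.2% and 41.8%). Its effect in replicate 2 minus that in replicate 1 was -0.59, larger in size than those of Dnmt3l and Tet1, and did not pass over all genes either. Mock had 1 array of each number in this model, and that array was assumed to vary like the others.

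The genes whose values followed Dnmt3l most closely over the 6 arrays, among 3221 candidates, were the amino acid transporter Slc38a1 (Pearson r = 0.999), the nucleolar protein Nolc1 (0.997) and Comtd1 (0.996). Their own differences were -0.52, -0.45 and -0.75. For Tet1 they were Tenm4, a teneurin membrane protein (r = 0.994), the RNA-binding protein Zfr (0.987) and Prr14l (0.981), with differences of -0.99, -0.56 and -0.33. The 6 points share the groups and the replicate numbers, so these correlations are a description.

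The genes around the enzymes showed no common direction. Over 4 lists of 55 genes, 44 were measured, with a median difference of -0.00884. Of these 3 rose and 4 fell, where 4.15% and 6.20% of all genes did. With the block 11 of the 44 passed, where 3081 of all 15268 genes did. Among 15 measured partners in maintenance and targeting, 2 fell and 0 rose. Dppa3, which keeps Uhrf1 away from chromatin in oocytes and early embryos, fell by 0.91 (SE 0.150, limma adjusted p = 0.00844), and Hells, a chromatin remodeller needed for normal methylation, fell by 0.36 (SE 0.0809, adjusted p = 0.0260). Usp7, a deubiquitinase that binds Dnmt1 and Uhrf1, was at -0.27 (limma adjusted p = 0.693) and lower in replicate 2 by 0.77 (0.0351), and Uhrf2, the paralogue of Uhrf1, was at 0.26 (0.281). Leaving out mock replicate 1 took Dppa3 to 0.0558. That of Hells ended without siRNA 2 replicate 2, siRNA 3 replicate 1 or either mock array (0.0524 to 0.149), and with the prior without a trend (0.0707).

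In the methyl donor list, 1 of 5 measured genes rose and 1 fell, where 4.15% and 6.20% of all genes did. Bhmt, which remethylates homocysteine with betaine, rose by 2.09 (SE 0.403, limma adjusted p = 0.0153), and was also higher in replicate 2 than in replicate 1 by 1.00 (adjusted p = 0.0117). On the mock arrays Bhmt was dim, at 3.79 and 4.34, with 16.5% and 26.7% of an array's probe sets at or below it. Shmt2, a mitochondrial enzyme of one-carbon supply, fell by 0.70 (SE 0.0924, adjusted p = 0.00363). Mtr, the methionine synthase, was at -0.35 (limma adjusted p = 0.112) and Mat2b, the regulatory subunit of S-adenosylmethionine synthesis, at 0.20 (0.324). Bhmt did not pass without either mock array (0.0982 and 0.0781), nor Shmt2 without mock replicate 2 (0.0515).

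Of 17 measured genes of demethylation and base excision repair, 1 rose and 1 fell, where 4.15% and 6.20% of all genes did. With the block 2 were higher and 3 lower, where 3081 of all 15268 genes passed. Gadd45a, a growth arrest and DNA damage protein that was linked to demethylation and is also a target of p53, rose by 0.85 (SE 0.0871, limma adjusted p = 0.00168), and this call held without any 1 array. Polb, the polymerase that fills the gap after base excision, fell by 0.53 (SE 0.110, adjusted p = 0.0208), but not without either siRNA 2 array or mock replicate 2 (0.0529 to 0.179). Xrcc1 (0.35, limma adjusted p = 0.0661) and Lig3 (-0.35, 0.131), which form the ligation step, did not pass; with the block their adjusted p was 0.0156 and 0.0373. Of 7 methyl-CpG readers, Mbd1 rose by 0.52 (SE 0.123, limma adjusted p = 0.0336). Mbd1 was at 4.69 and 4.72 in mock, with 33.8% and 32.7% of an array's probe sets at or below it. Its call ended without any 1 array except siRNA 2 replicate 1 (0.0669 to 0.153). Mbd2 (0.36), Mbd6 (-0.30) and Mbd3 (-0.28) did not pass, and Mbd2 did with the block (0.0356).

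**Figure D4:**
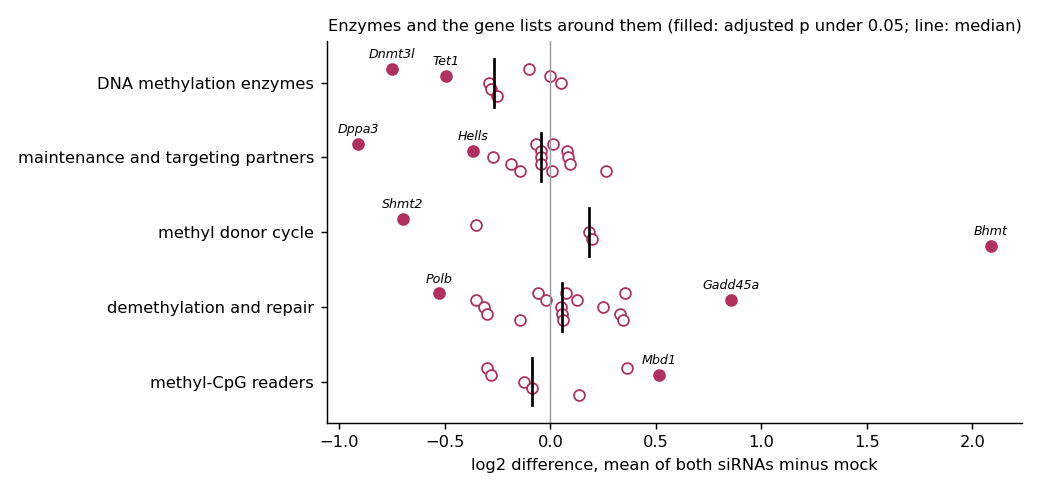
Log2 difference for the mean of both siRNAs minus mock of each measured gene in the enzyme set and 4 lists around it, 1 point per gene, with the median of each list as a line; filled points have an adjusted p under 0.05 and are named. The enzyme set has a median of -0.27 and the 4 lists together one of -0.00884, with filled points on both sides of 0.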

How the data were processed

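Biotin-labelled total RNA of 6 samples was hybridised to Affymetrix whole mouse genome arrays, 1 per sample. The authors deposited log2 values, and the submitters' processing notes name RMA. This method corrects background, normalizes arrays to each other and summarises probes, so changes near background are compressed. Neither its version nor how probes were grouped is given in the sources used here. Array medians were 6.08 to 6.12, no scaling was added, and precision is limited by the number of arrays.

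Of 16556 probe sets, 15270 had 1 annotated gene, 0 had several and 1286 had none. The brightest probe set per gene was kept, which gave 15268 genes with Tet1. Naming by the gene number in the ID was applied to members only. A gene of the other lists without annotation therefore counts as not measured. A linear model with 3 group means was fitted in limma 3.58.1 (R 4.3.3) with empirical Bayes moderation and a trend of the variance over level. Two-sided p-values were adjusted over all 15268 genes (Benjamini-Hochberg), and the threshold was 0.05. Replicate 2 was compared with replicate 1 in a model of group and replicate number. Its dependence with depletion used 4 means. Same-numbered arrays deviated together from their group means (correlations of 0.383, 0.281 and 0.443 over genes), so the numbers were taken to pair the samples. The model with 3 group means, used unless the block is named, leaves this pairing out. Differences between the numbers add to its spread, and the SE of Dnmt3b was 0.236 in it and 0.0626 with the block. Blocked values are given where the block changes a call of a member or a count of a list.

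The members and lists were chosen with earlier results of these data known. The rule for named genes took all members, Fip1l1, up to 4 genes per list (those past the threshold and with larger changes first) and, for members past the threshold, the 3 most correlated genes of at least median level with a range of at least 0.5. The model was tested on simulated data. Figures used matplotlib 3.10.9.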

Additional observations from a re-analysis of the deposited data

Results flagged for a closer look

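Tet2 stood on opposite sides of mock in the 2 replicates. In replicate 1 it was below the mock array with siRNA 2 (-0.329) and siRNA 3 (-0.125), and in replicate 2 above it (0.247 and 0.193). The effect in replicate 2 minus that in replicate 1 was 0.45 (95% interval 0.04 to 0.86). Its unadjusted p was 0.0359 and its limma adjusted p 0.999, so this difference did not pass. Opposite sides of this kind were found in 12.0% of all genes.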

How the results depend on the processing

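For the mean of both siRNAs 2 members passed, and 4 did with the replicate block. The count was 1, Tet1, with the prior without a trend, with robust empirical Bayes, after centring each array on its median and after repeated quantile normalization, where the adjusted p of Dnmt3l was 0.0668, 0.0501, 0.0510 and 0.0522. It was 0 to 2 when 1 array was left out, and 2 only without siRNA 3 replicate 1. For siRNA 2 the count of 1 was 4 with the replicate block, 2 without genes under the median level and with only the groups compared in the fit (Dnmt3l and Tet1 in each), and 0 to 2 with 1 array left out. For siRNA 3 the count of 0 was 2 with the replicate block. Between the replicate numbers the count of 2 was 1, Dnmt3b, with the prior without a trend (Dnmt3l at 0.0835), and 1 to 2 with 1 array left out. Over the pathway, germline and imprinted lists, 13 genes passed, 23 with the replicate block and 2 to 11 with 1 array left out. The comparisons between the siRNAs and of the depletion effect between the replicate numbers gave 0 members in every alternative run. Over all genes, 1579 passed for the mean of both siRNAs, 3081 with the block and 305 to 1372 without 1 array, fewest without mock replicate 2. No member past the threshold changed direction in any alternative. The fits that combine the replicate block with leaving out 1 array were chosen after seeing the data; the replicate block changed no member's call other than those given. Where calls were lost, the cause was not tested. Each group had 2 arrays, so 1 lone array was assumed to vary like the others when its partner was left out.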

Other observations

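Germline genes that are known to be kept silent by promoter methylation did not move one way. Their mock means ran from 3.72 to 9.87, the highest being Sycp3, so the list is not a set of genes silent in these cells. Of 14 measured genes in that list, 2 rose, 2 fell and 10 did not pass, with a median difference of 0.07. Among all genes 4.15% rose and 6.20% fell, and 3081 of 15268 passed with the block. In the list, with the block 3 were higher, Ddx4 among them (0.34, limma adjusted p = 0.0271, named after its value was seen), and 2 lower. Dazl, an RNA-binding protein of germ cells, rose by 0.90 (SE 0.230, limma adjusted p = 0.0437) and Taf7l, a testis-enriched TFIID subunit, by 0.52 (SE 0.123, adjusted p = 0.0325). Stk31 fell by 0.76 (SE 0.134, limma adjusted p = 0.0109) and Sycp3, of the synaptonemal complex, by 0.67 (SE 0.134, adjusted p = 0.0173). Dazl was also higher in replicate 2 than in replicate 1 by 0.54 (limma adjusted p = 0.0331). The calls of Dazl ended without either mock array, siRNA 2 replicate 2 or siRNA 3 replicate 2 (0.0660 to 0.208) and with the prior without a trend (0.0550), those of Taf7l without any 1 array (0.0601 to 0.151), those of Stk31 without either mock array (0.0595 and 0.0652), and those of Sycp3 without siRNA 2 replicate 2 (0.0632) or mock replicate 2 (0.149).

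Of 24 measured imprinted genes, 2 rose and 0 fell, with a median difference of 0.03. Among all genes 4.15% rose and 6.20% fell, and 3081 of 15268 passed with the block. Ndn rose by 0.82 (SE 0.148, limma adjusted p = 0.0122) and Mkrn3 by 0.63 (SE 0.121, adjusted p = 0.0147). The paternally expressed genes Ndn and Mkrn3 lie in the same imprinted domain, as do Magel2 and Peg12, named after their values were seen. Magel2 (0.08, limma adjusted p = 0.900) and Peg12 (0.30, 0.184) did not pass, nor did they with the block (0.749 and 0.131). Meg3, a maternally expressed long noncoding RNA, was at -0.69 (limma adjusted p = 0.211, or 0.00124 with the block) and was lower in replicate 2 by 0.78 (adjusted p = 0.00385). Igf2r was at -0.43 (limma adjusted p = 0.0695, or 0.0257 with the block), and with the block 4 imprinted genes were higher and 3 lower. Ndn did not pass without mock replicate 2 (0.105), nor did Mkrn3 without siRNA 2 replicate 2 or either mock array (0.0540 to 0.110).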
